A study of Mus musculus with 6 samples.

Results

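A set of 10 genes of iron and heme handling were followed in RAW 264.7 cells, a mouse line that resembles macrophages, after exposure to bacterial lipopolysaccharide (LPS). The genes were Lcn2, Cp, Tfrc, Pcbp1, Slc11a1, Slc11a2, Slc40a1, Fth1, Hmox1 and Ireb2, taken by symbol from all probes whose platform annotation names exactly 1 gene. Of these 10 genes, 9 had a probe (11 probes of 16281 on the array) and 8 had a probe with a ratio on all 6 arrays, out of 9607 such genes. The treated group received LPS at 100 ng/ml together with LPS-binding protein at 100 pM, a serum protein that passes LPS on to CD14 and the receptor, for 16 hours, and the control group was cultured untreated for 16 hours. No genetic change is given for either group, both are the same transformed cell line, and the labels do not say whether the sets came from separate cultures. The sample titles number the line 264.7, while 264.4 is written in places elsewhere.

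Each of the 6 dual-colour arrays carried treated and untreated RNA together, with the treated RNA in Cy5 on 3 arrays and in Cy3 on 3, and sets numbered 1 to 3 in each orientation. Values below are log2 ratios of treated over untreated. A set is the mean of its 2 orientations, the SD is over the 3 sets (n = 3), and the adjusted p is from limma's test against 0 with Benjamini-Hochberg adjustment over all 9607 genes, called below 0.05. P-values weigh the mean against the spread between these sets, which may be technical. In limma the spread of each gene is moderated toward that of all genes. With each gene's own spread alone, 0 of the 8 measured genes were called, and of all 9607 genes only 4 were called up and 3 down. Fits with 1 set left out rest on 2 sets and lean more on the shared spread. The deposited ratios were read as Cy5 over Cy3, a direction the table does not state. That reading is likely, since each label names the red (Cy5) sample as test and the green (Cy3) sample as control. Under the opposite reading every sign, rise, fall and rank below would turn over, so that Lcn2, for example, would be the 23rd lowest gene and 7 of the 8 measured genes would fall, against 16.8% of all. Arrays of opposite orientation, once turned, correlated at r = 0.622 to 0.852 across probes, which are not independent, and this holds under either reading. A ratio within an array holds no expression level, so the cell type could not be checked by level, and a lower ratio from less RNA per cell cannot be told apart from one due to fewer cells that express the gene.

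Macrophages hold much of the body's iron in transit. They take it in from transferrin and from old red cells, free it from heme, store it in ferritin, and return it to the blood through the exporter ferroportin. During infection they are known to withhold iron from microbes, in part by binding bacterial siderophores and by moving metal ions out of the phagosome. Iron-regulatory proteins adjust many of these genes after transcription, through stem-loops in their mRNAs, in addition to control of transcription by inflammatory signals.

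The 2 genes with the largest changes, Lcn2 and Cp, are both known acute-phase genes, and the C/EBP factors are known regulators of that class. The stretch before the RefSeq start of each (assembly GRCm38.p6, read in the direction of the gene) is therefore shown, with letters that match the C/EBP core TTGCNNAA on either strand in capitals. The Lcn2 stretch is the 250 bases at chr2:32387740-32387989, minus strand. The Cp stretch is 30 bases at chr3:19957168-19957197, plus strand, before the second of 2 annotated starts. It was cut around the match, and the 250 bases before the first Cp start held 0 such matches.
Lcn2: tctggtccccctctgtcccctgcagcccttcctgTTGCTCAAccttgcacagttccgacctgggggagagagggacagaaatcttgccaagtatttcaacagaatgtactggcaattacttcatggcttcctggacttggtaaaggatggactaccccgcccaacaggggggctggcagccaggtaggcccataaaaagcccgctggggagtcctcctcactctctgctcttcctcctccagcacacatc
Cp: attagttactcTTTTGCAAcattaaattgt

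The capitals lie 216 to 209 bases before the Lcn2 start and, on the opposite strand, 70 to 63 bases before the second Cp start. The same letters occurred in 9.56% of all 32851 promoter windows of 250 bases. The RefSeq promoter table held 7 of the 10 genes (10 windows), and the C/EBP letters were also present in the window of the second Fth1 start. Letters of NF-kappaB were searched on both strands as GGGANNNTC, found in 0 of the 10 windows against 12.2% of all, and as GGGANNNCC (15.8% of all), found once, before Tfrc, where its 2 windows overlap. STAT (TTCNNNGAA, 7.02% of all windows) and the antioxidant response (TGACNNNGC, 10.2%) gave 0 matches as well. The hypoxia response core (ACGTG, 16.6%) occurred before Tfrc and Pcbp1, AP-1 (TGANTCA, 6.75%) once before Cp, and TTCNNNTTC (18.1%) once before Cp. Such matches describe letters of the reference strain C57BL/6J, and factor binding was not measured.

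Most of the measured iron and heme genes were higher in treated cells. Of the 8 with a ratio on all 6 arrays, 7 rose, against 16.8% of all 9607 genes, and 1 fell, against 14.6% (31.4% in either direction). Their median was 1.22 on the log2 scale, while the median of all genes was -0.01. The genes were chosen with earlier results of these data known, so these shares and medians are a description. One sign on all 6 arrays was found for 7 of the 8, against 35.6% of all genes, and the exception was Hmox1. The rises ran from 12.5-fold for Lcn2 and 9.41-fold for Cp, through Slc11a1 (3.07-fold), Tfrc (2.72-fold), Slc40a1 (1.99-fold) and Slc11a2 (1.62-fold), to 1.35-fold for Hmox1, and Pcbp1 was 1.51-fold lower.

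**Figure D1:**
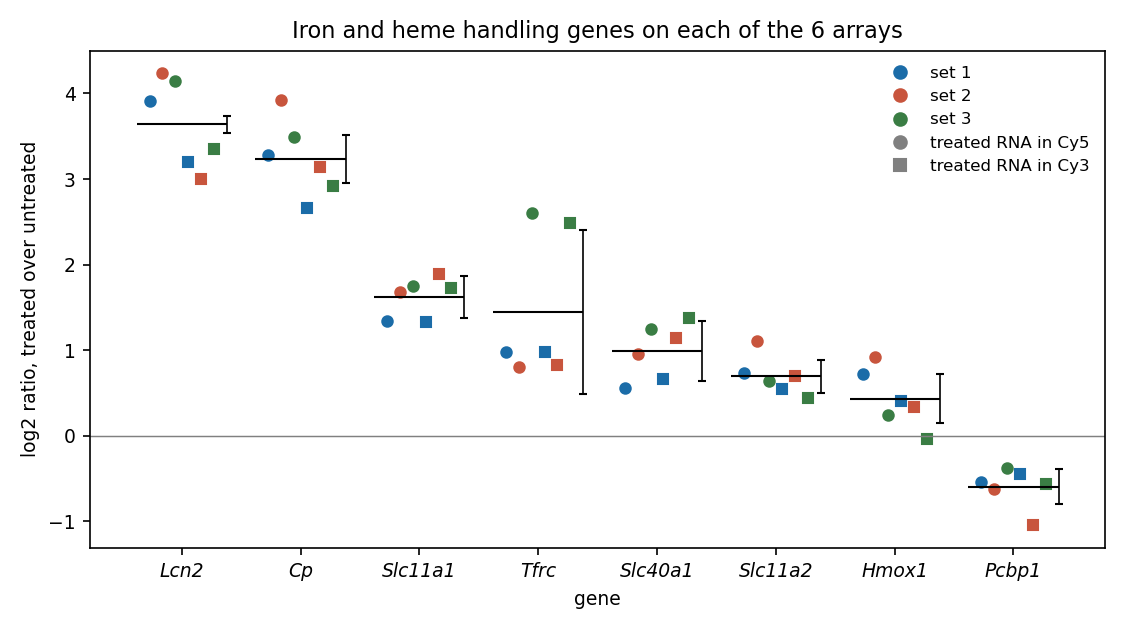
Log2 ratio of treated over untreated cells (vertical axis) for the 8 genes measured on all 6 arrays (horizontal axis), with colour for the set, circles where the treated RNA was in Cy5 and squares where it was in Cy3; the line is the mean and the bar the SD over the 3 sets. Lcn2 and Cp stand above 2.6 on every array, Pcbp1 is below 0 on every array, and the set 3 points of Tfrc lie apart from its other 4.

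The genes of secreted proteins, Lcn2 and Cp, came first. Lcn2 encodes lipocalin 2, which captures bacterial siderophores and so keeps iron from bacteria. With treated RNA in Cy5 it stood at 3.91, 4.24 and 4.14 in sets 1, 2 and 3, and with treated RNA in Cy3 at 3.20, 3.01 and 3.35. All 6 arrays were far above 0, and every Cy5 array was higher than every Cy3 array. The mean was 3.64 ± 0.10 (adjusted p = 1.49e-06 in limma), the 23rd highest of the 9607 genes. The sets themselves were close, at 3.55, 3.62 and 3.75.

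Cp encodes ceruloplasmin, a copper-carrying ferroxidase that oxidises iron as it leaves cells so that transferrin can load it. Its ratios were 3.28, 3.92 and 3.49 on the Cy5 arrays and 2.66, 3.14 and 2.92 on the Cy3 arrays. Again each of the Cy5 arrays lay above all of the Cy3 arrays, and set 2 was highest in both orientations. The mean of 3.23 ± 0.28 (adjusted p = 4.54e-06 in limma) placed Cp 36th among all genes. Lcn2 and Cp were 2 of 47 genes (0.489% of all) with a rise of at least 8-fold.

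The larger ratios of Lcn2 and Cp on the Cy5 arrays were measured as a dye difference. For Lcn2 the Cy5 arrays exceeded the Cy3 arrays by 0.91 on average (0.71, 1.23 and 0.80 in sets 1, 2 and 3), and in the 6-array limma model the dye term had an adjusted p = 0.0502. For Cp the difference was 0.66 (adjusted p = 0.185 in limma). No iron or heme gene passed this test, which called 0.364% of all genes. Without adjustment 2 of the 8, Lcn2 and Cp, had p under 0.05 in limma. The share of all genes at that unadjusted cutoff was not counted, so 0.364% is not its counterpart. The median dye difference over the 47 genes with at least 8-fold rises, which include Lcn2 and Cp themselves, was 0.66. Over all genes it was 0.00. With either orientation alone both genes stayed called, at 4.10 and 3.18 for Lcn2 and at 3.56 and 2.91 for Cp.

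**Figure D2:**
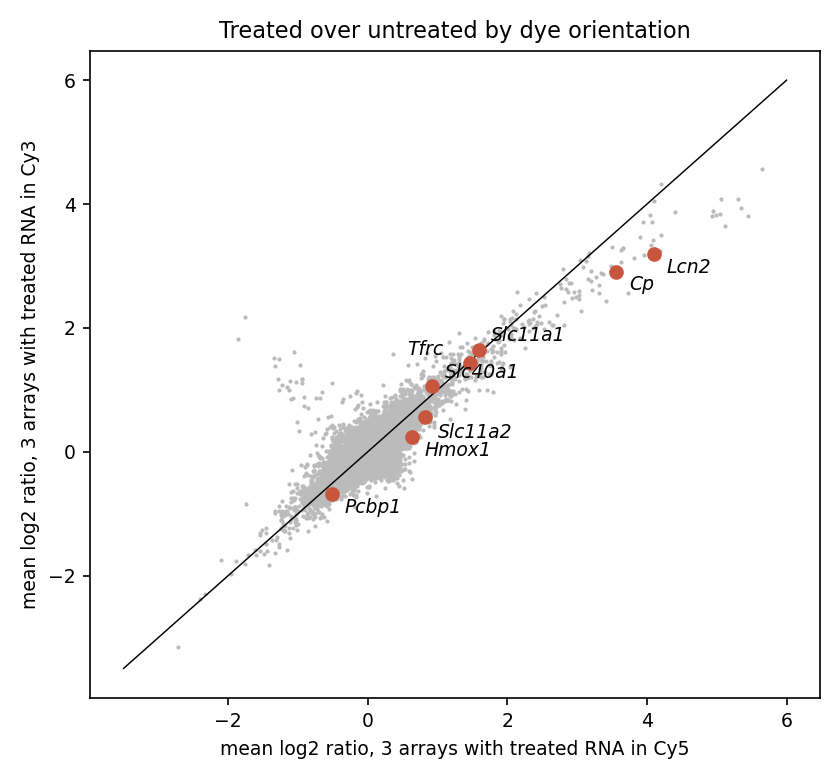
Mean log2 ratio on the 3 arrays that had Cy5 on the treated RNA (horizontal axis) against the mean on the 3 that had Cy3 on it (vertical axis); grey points are all 9607 genes, red points the 8 iron and heme genes, and the line marks equal values. Lcn2 (4.10 and 3.18) and Cp (3.56 and 2.91) lie below the line, as do many of the most raised genes, and Tfrc and Slc11a1 lie on it.

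Lcn2 is also a known product of neutrophil granules, and 7 such granule markers were measured. In limma 0 of these 7 passed, 1 had an unadjusted p under 0.05 (Prtn3, at -0.20), and their ratios ran from -0.20 to 0.12. Of 8 measured macrophage markers 6 rose and 1 fell, from -0.27 for the receptor Csf1r to 2.13 for the Fc receptor Fcgr1. Of 4 erythroid markers 1 fell and 0 rose, of 6 T and B cell markers 2 rose, and of 5 fibroblast markers 1 rose. Beside these counts stand the 16.8% of all genes that rose and the 14.6% that fell, and the part of the markers in the results was not tested. The 5 genes nearest to Lcn2 across the 6 arrays, by Euclidean distance of their log2 ratios among 9606 genes, were Cxcl10 (distance 0.46), Isg15 (0.55), Lilr4b (0.56), Ms4a6c (0.59) and Zbp1 (0.65), with mean ratios from 3.47 to 3.76.

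The metal ion transporters of the NRAMP family followed. Slc11a1 (NRAMP1) sits in the phagosome membrane of macrophages, moves divalent metal ions, and is known in mice for its effect on resistance to intracellular microbes. It stood at 1.33, 1.68 and 1.75 on the Cy5 arrays and at 1.33, 1.89 and 1.73 on the Cy3 arrays. The orientations overlapped (dye difference -0.06), and both set 1 arrays were the lowest. The mean was 1.62 ± 0.25 (adjusted p = 6.92e-05 in limma), and Slc11a1 ranked 160th. These are mRNA ratios. Which Slc11a1 allele this line carries was not examined, and neither the protein nor its transport of metal ions was measured.

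Slc11a2 (DMT1) carries ferrous iron into the cytosol from the gut lumen and from endosomes, downstream of the transferrin receptor. As the mean of its 2 probes it was at 0.73, 1.11 and 0.64 on the Cy5 arrays and at 0.55, 0.69 and 0.44 on the Cy3 arrays, giving 0.69 ± 0.19 (adjusted p = 0.00152 in limma). The mean hides a gap between the probes. The first, annotated with accession L33415, had set values of 0.27, 0.50 and 0.09 and did not pass over all probes (0.28 ± 0.21, 95% interval 0.06 to 0.51, adjusted p = 0.0643 in limma).

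The second Slc11a2 probe, annotated with NM_008732, had set values of 1.00, 1.31 and 0.99, and was called (1.10 ± 0.18, 2.14-fold, adjusted p = 0.000181 in limma, where 30.8% of 13418 probes were called). Every array of the second probe lay above every array of the first. The second exceeded the first by 0.73, 0.81 and 0.91 in sets 1, 2 and 3, with a mean of 0.82 ± 0.09. That mean covers unequal orientations, since the gap was 0.96, 1.19 and 1.11 on the Cy5 arrays and 0.49, 0.44 and 0.70 on the Cy3 arrays. The second probe had a dye difference of 0.54 (adjusted p = 0.189 in limma) and the first one of -0.01. Among 1679 genes with 2 measured probes the median gap was 0.11, and 4.94% had a larger gap than Slc11a2. Probe sequences were not analysed here, so which transcripts each probe reads is not known. Without set 3 the first probe was called as well (0.38, adjusted p = 0.0178 in limma).

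**Figure D3:**
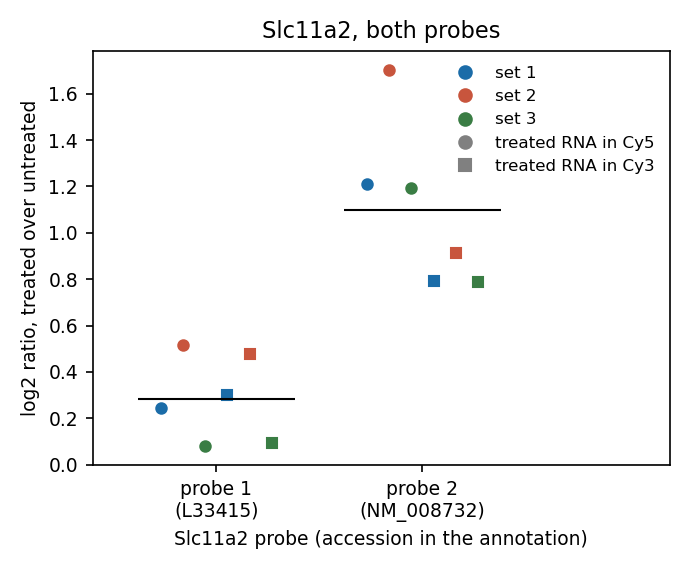
Log2 ratio of treated over untreated cells (vertical axis) for the 2 Slc11a2 probes (horizontal axis), with colour for the set, circles for treated RNA in Cy5, squares for Cy3, and a line at the mean. The probes do not overlap, at means of 0.28 and 1.10.

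Iron uptake from transferrin was represented by Tfrc, the transferrin receptor, whose mRNA is known to be stabilised by iron-regulatory proteins when iron is scarce. Its first probe stood at 0.98, 0.80 and 2.61 on the Cy5 arrays and at 0.97, 0.82 and 2.48 on the Cy3 arrays. Both orientations gave nearly the same value in every set (dye difference 0.04), and both set 3 arrays were well above the other 4. The set means were thus 0.98, 0.81 and 2.54, with a mean of 1.44 ± 0.96 (adjusted p = 0.012 in limma). The difference between sets was known when the gene was chosen and is given as a description. Only 28 of 9607 genes (0.29%) had a larger SD over the sets, and the median SD was 0.12. Without set 3 the mean was 0.89 (adjusted p = 2.69e-06 in limma). The variance in that fit is largely shared with other genes (standard error 0.103, and 0.101 for Hmox1). Its smaller p-value is therefore not stronger evidence. With robust moderation of the variance the call of Tfrc was lost (1.44, adjusted p = 0.158 in limma).

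A second Tfrc probe, annotated with the same accession X57349, had a ratio on the set 3 arrays only and was listed at exactly 0 on the other 4. As deposited (Cy5 over Cy3) it was at -1.95 with treated RNA in Cy5 and at -1.91 with treated RNA in Cy3. Turned to treated over untreated these are -1.95 and 1.91, so the orientations opposed each other and their mean was -0.02. With the direction taken here, the Cy3 channel was the brighter one on both arrays, whichever RNA it held. Of 13936 probes with a ratio on both set 3 arrays, 10 had the same deposited sign and lay beyond 1.9 on both. With exact zeros kept as ratios this probe enters the gene's mean, which then was 0.72 and not called (adjusted p = 0.118 in limma).

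The genes nearest to Tfrc by the same distance were chosen on these 6 arrays, so the step in set 3 that they share with it follows from the choice and is a description. They were 5430427O19Rik (distance 0.30), the actin-capping gene Capza2 (0.35), the LPS co-receptor gene Ly96 (0.46), the lipase gene Lpl (0.64) and Hao1 (0.81), out of 9606 genes. Ly96 stood at 0.99, 1.03 and 2.32 in sets 1, 2 and 3, and Lpl at 0.74, 0.76 and 2.19. All 5 had set 3 values between 2.19 and 2.74 and values of 1.08 or less in the other sets.

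**Figure D4:**
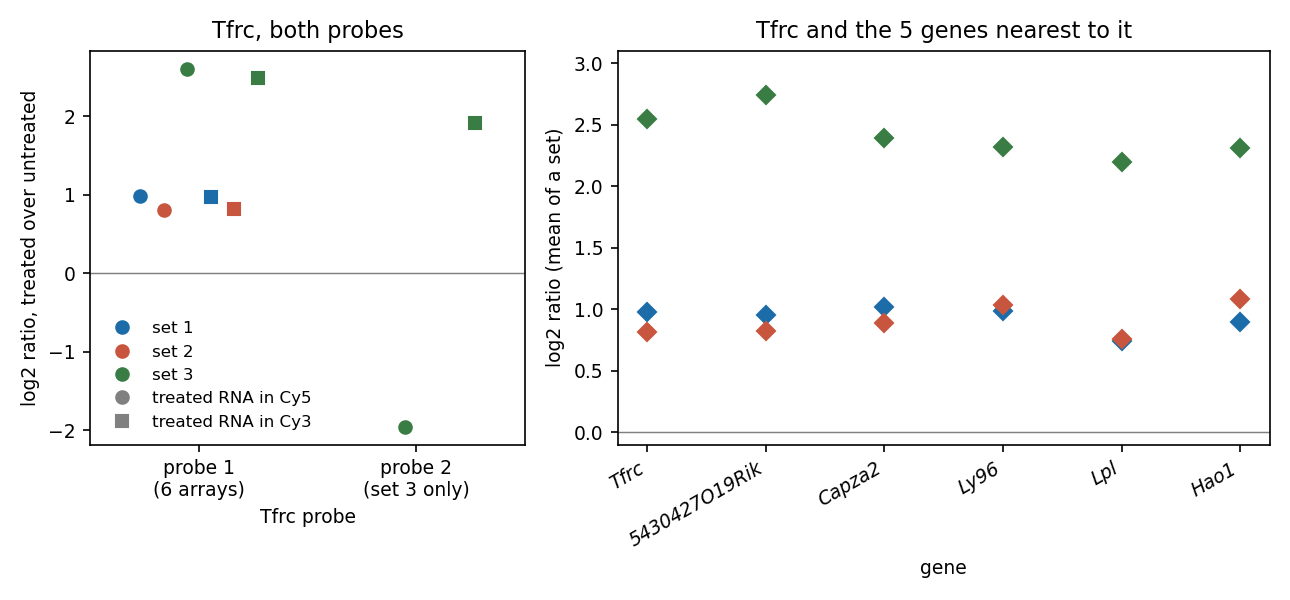
Left, log2 ratio of treated over untreated cells for the 2 Tfrc probes, with colour for the set, circles for treated RNA in Cy5 and squares for Cy3; the second probe has points only in set 3, at -1.95 and 1.91. Right, set means for Tfrc and the 5 genes nearest to it, where set 3 (green) lies at 2.19 or above for all of them and sets 1 and 2 at 1.08 or below.

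Export was represented by Slc40a1, which encodes ferroportin, the known iron exporter of vertebrate cells. Its ratios were 0.56, 0.95 and 1.25 on the Cy5 arrays and 0.66, 1.15 and 1.37 on the Cy3 arrays. The order of the sets was the same in both orientations, with set 1 lowest and set 3 highest. The mean was 0.99 ± 0.35 (adjusted p = 0.0016 in limma), and without set 3 it was 0.83 (adjusted p = 2.14e-05 in limma). The smaller p-value again rests on a variance largely shared with other genes. Only 4.53% of all genes had a larger SD over the sets.

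Heme breakdown was represented by Hmox1, the inducible heme oxygenase that opens the heme ring and frees its iron. It was at 0.72, 0.92 and 0.25 on the Cy5 arrays and at 0.41, 0.34 and -0.04 on the Cy3 arrays. Set 3 was lowest in both orientations and its Cy3 array lay just below 0. The mean of 0.43 ± 0.29 passed (adjusted p = 0.0266 in limma), but leaving out set 1 ended the call (0.36, adjusted p = 0.132), as did leaving out set 2 (0.33, adjusted p = 0.13) and using the Cy3 arrays alone (0.24, adjusted p = 0.148). Without set 3 the value was 0.60 (adjusted p = 0.000183), again with a variance largely shared with other genes.

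Pcbp1 encodes an RNA-binding protein that also serves as an iron chaperone and loads ferritin. It was the gene that fell, with -0.54, -0.62 and -0.38 on the Cy5 arrays and -0.44, -1.05 and -0.56 on the Cy3 arrays. No array reached 0, and the lowest value was that of set 2 with treated RNA in Cy3. The mean was -0.60 ± 0.21 (adjusted p = 0.00337 in limma), the 373rd lowest of all genes.

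The genes of both chains of cytosolic ferritin had no usable ratio. Fth1, the ferritin heavy chain, had 1 probe, which was listed at exactly 0 on all 6 arrays, as were 1074 probes of the array, and an exact 0 was taken as no ratio. Ferritin light chain Ftl1 and the ferritin cargo receptor Ncoa4 also had 1 probe each without a ratio on all 6 arrays. Mitochondrial ferritin, Ftmt, was measured at 0.02 ± 0.12 (adjusted p = 0.865 in limma), with means of -0.31 on the Cy5 arrays and 0.36 on the Cy3 arrays. Ireb2, which encodes iron-regulatory protein 2, had no probe naming it. Its counterpart Aco1 (iron-regulatory protein 1) was at -0.14 ± 0.06 (95% interval -0.31 to 0.02, adjusted p = 0.185 in limma).

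The sets did not order the genes alike. Set 3 was highest for Lcn2, Tfrc, Slc40a1 and Pcbp1, and lowest for Slc11a2 and Hmox1, while set 2 was highest for Cp, Slc11a1, Slc11a2 and Hmox1 and lowest for Tfrc and Pcbp1. Set 1 was lowest for Lcn2, Cp, Slc11a1 and Slc40a1. In the order of the means, the set values of Lcn2 (3.55 to 3.75) lay just above those of Cp (2.97 to 3.53), and those of Cp well above the rest. Tfrc (0.81 to 2.54) overlapped its neighbours Slc11a1 (1.33 to 1.78) and Slc40a1 (0.61 to 1.31). Slc40a1 overlapped Slc11a2 (0.54 to 0.90), and Slc11a2 overlapped Hmox1 (0.10 to 0.63).

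The wider pathway had a median absolute log2 ratio of 0.145, against 0.142 over all genes. Of 78 further iron and heme genes in 5 lists, 54 were measured on all 6 arrays, of which 11 rose (20.4%, against 16.8% of all genes) and 5 fell (9.26%, against 14.6%). Without set 1, 5 rose and 5 fell, without set 2, 6 rose and 3 fell, and without set 3, 9 rose and 4 fell. Calls over all 9607 genes moved too, from 1618 up and 1400 down with all sets. They were 1193 and 965 without set 1, 1319 and 951 without set 2, and 1579 and 1411 without set 3.

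Among 14 measured iron transport genes, 3 rose (21.4%, against 16.8% of all genes) and 2 fell (14.3%, against 14.6%), with a median of -0.01. Lrp1, an endocytic receptor that takes up heme bound to hemopexin, was at 0.552 of its untreated level and so fell (-0.86 ± 0.13, adjusted p = 0.000342 in limma). Hjv, a co-receptor in the control of hepcidin, fell by 0.50 on the log2 scale (SD 0.04, adjusted p = 0.00193). The rises were small, at 0.40 for Slc22a17, a reported lipocalin 2 receptor, 0.24 for the metal transporter Slc39a8 and 0.23 for Meltf, a transferrin relative. Slc22a17 lost its call without set 1 or set 2 (0.36 in each case, adjusted p = 0.0689 and 0.0578), and Slc39a8 and Meltf lost theirs without any one set (0.19 to 0.27 and 0.21 to 0.25). Slc39a8 was at 0.45 on the Cy5 arrays and at 0.03 on the Cy3 arrays (adjusted p = 0.873), and was not called with the set as a random block (adjusted p = 0.214). Meltf was called on neither orientation alone (0.25 and 0.20, adjusted p = 0.116 and 0.129). Hamp, which encodes the hormone hepcidin, was at -0.02 ± 0.06 (adjusted p = 0.905).

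Of 7 measured genes of iron storage and sensing, 1 had an unadjusted p under 0.05 in limma, against 3862 of all 9607 genes. After adjustment 1 rose (14.3%, against 16.8% of all genes) and 0 fell (against 14.6%). This was Bdh2, a dehydrogenase, at 0.32 ± 0.11 (adjusted p = 0.018 in limma), and leaving out set 1 (0.30, adjusted p = 0.098) or set 2 ended its call (0.28, adjusted p = 0.0874). It was also not called with the set as a random block (adjusted p = 0.0936) or on the Cy5 arrays alone (0.21, adjusted p = 0.258). Of 14 measured genes of mitochondrial iron and iron-sulfur clusters, 2 rose (14.3%, against the same 16.8%) and 0 fell, and 5 had an unadjusted p under 0.05 in limma. Slc25a37 (mitoferrin 1), which brings iron into mitochondria, rose 1.88-fold (0.91 ± 0.08, adjusted p = 0.000176), and the assembly factor Isca2 rose 1.38-fold (0.46 ± 0.10, adjusted p = 0.00399). Isca2 was at 0.30 on the Cy5 arrays, where it was not called (adjusted p = 0.0928), and at 0.63 on the Cy3 arrays. The other 12 lay between -0.25 and 0.17.

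Heme synthesis gave 1 rise and 1 fall among 7 measured genes (14.3% each, against 16.8% and 14.6% of all genes). Alas1, the first and rate-limiting enzyme outside red cells, rose 1.41-fold (0.49 ± 0.06, adjusted p = 0.00225 in limma). Fech, which inserts iron into the ring in the last step, was at 0.821 of its untreated level and fell (-0.29 ± 0.08, adjusted p = 0.0233), and leaving out set 1 (-0.28, adjusted p = 0.105) or set 2 ended its call (-0.25, adjusted p = 0.106). Neither orientation alone called Fech (-0.36 and -0.21, adjusted p = 0.0546 and 0.1003).

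Of 12 measured genes of heme uptake, transport and breakdown, 4 rose (33.3%, against 16.8% of all genes) and 2 fell (16.7%, against 14.6%). Hp encodes haptoglobin, the plasma protein that binds free hemoglobin, and rose 2.75-fold (1.46 ± 0.20, adjusted p = 6.94e-05 in limma), the largest change in the 5 lists with this choice of probes. It was 0.88 when probes with a ratio on at least 1 array of each set entered the mean and 0.80 with exact zeros kept as ratios, smaller than the change of Pgrmc2, and was called in both (adjusted p = 0.000273 and 0.00939). Blvra, biliverdin reductase, acts just after heme oxygenase and rose 1.36-fold (0.45 ± 0.23, adjusted p = 0.0133), a call that ended when set 1 was left out (0.37, adjusted p = 0.0807). The related membrane heme-binding proteins Pgrmc1 and Pgrmc2 went opposite ways, at 0.73 ± 0.18 (adjusted p = 0.00111) and -0.97 ± 0.21 (adjusted p = 0.000442). With exact zeros kept Pgrmc1 was at 0.33 (adjusted p = 0.0498). Hpx, which encodes the heme scavenger hemopexin, fell (-0.28 ± 0.17, adjusted p = 0.0467), and leaving out set 2 (-0.22, adjusted p = 0.198) or set 3 ended its call (-0.25, adjusted p = 0.102). Hpx was at -0.52 on the Cy5 arrays and at -0.04 on the Cy3 arrays (adjusted p = 0.757), and with the set as a random block it was not called (adjusted p = 0.0801). Cd163, the receptor of haptoglobin bound to hemoglobin, was at -0.11 ± 0.15 (adjusted p = 0.371).

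**Figure D5:**
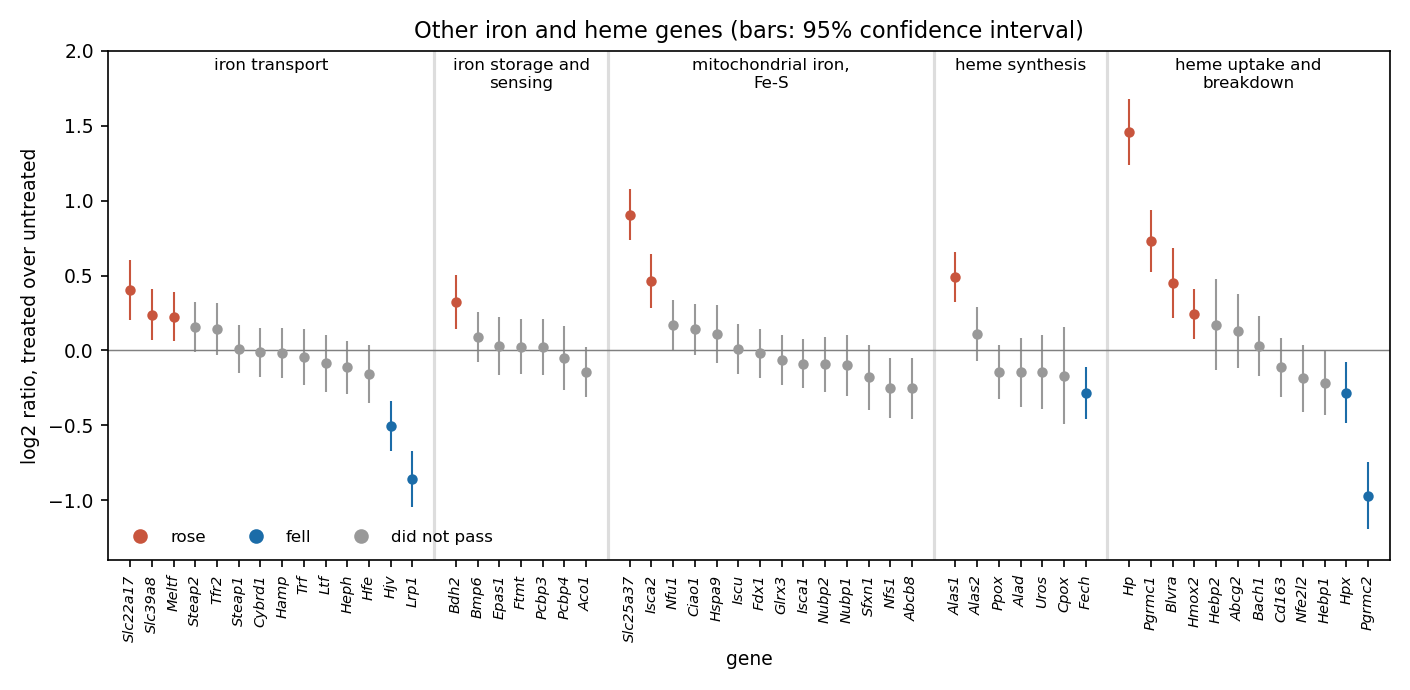
Log2 ratio of treated over untreated cells (vertical axis) for the 54 measured genes of the 5 further iron and heme lists (horizontal axis), with the 95% confidence interval from limma as bars; red genes rose, blue genes fell and grey genes did not pass. Hp (1.46) and Slc25a37 (0.91) are highest, and Pgrmc2 (-0.97) and Lrp1 (-0.86) lowest.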

How the data were processed

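The deposited table holds log2 ratios of the 2 channels of each array, as read from its signs and range. Scanner, background correction and normalization: not given in the sources used here. Array intensities were not used. All 6 columns deposited by the authors have a median of 0, which was kept, and the highest value is the log2 of 100. Exact zeros (9.56% to 12.9% of an array) were taken as missing. Of 16281 probes, 13738 named 1 gene symbol, 52 several, and 2491 are unnamed here. Gene values average the probes that gave a ratio on every array. Symbols were matched by Entrez identifier to the RefSeq table of GRCm38.p6.

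Arrays were turned to treated over untreated by dye, both orientations of a set were averaged, and the 3 sets were tested against 0 with limma 3.58.1 (lmFit, eBayes, two-sided) in R 4.3.3. Dye terms came from a 6-array model. Lists were described by counts. Figures were made with Python 3.11.15. On simulated data for these 9607 genes the fit recovered 38% of the genes changed by log2 0.5 and 80% of those changed by log2 1. Of its calls 1.86% were false. The simulation changed a far smaller share of genes than the 31.4% called here, with normal noise independent between genes. Recovery in the real data may therefore differ.

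The genes, lists and alternatives were chosen with earlier results of these data known. Named further genes are, per list, up to 3 called genes with the largest rises and 3 with the largest falls, and the 5 genes nearest to Tfrc and to Lcn2. Aco1, Hamp, Cd163, Ftl1, Ftmt and Ncoa4 were named after their values were seen. Precision is limited by having 6 arrays, and the depth of signal over background is unknown. No 2 arrays held identical values. Alternatives covered the pairing of arrays, dye orientation, each set left out, centring, scaling, missing values, the summary of probes and the variance model.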

Additional observations from a re-analysis of the deposited data

Results flagged for a closer look

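The second Tfrc probe carried a signal outside the main measurement, since it had a ratio on the set 3 arrays only. Its deposited ratio (Cy5 over Cy3) was -1.95 with treated RNA in Cy5 and -1.91 with treated RNA in Cy3. It was 1 of 6 probes on the array with a ratio on both set 3 arrays and none on the other 4. The first Tfrc probe, turned to treated over untreated, was at 2.61 and 2.48 on these arrays.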

How the results depend on the processing

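The 8 iron and heme genes kept their direction under all 15 alternatives. Lcn2, Cp, Slc11a1, Slc11a2, Slc40a1 and Pcbp1 kept their calls in 14 of them. The exception was the ordinary variance without moderation, which uses each gene's own spread over 3 sets and called 4 genes up and 3 down in all. It called 0 of the 8 genes up and 0 down (5 and 1 at an unadjusted p under 0.05), and 0 further pathway genes up and 0 down (12 and 5 unadjusted). The values there were unchanged, with adjusted p = 0.0715 for Lcn2 (3.64), 0.0789 for Cp (3.23), 0.0933 for Slc11a1 (1.62), 0.13 for Slc11a2 (0.69), 0.155 for Pcbp1 (-0.60), 0.161 for Slc40a1 (0.99), 0.277 for Tfrc (1.44) and 0.279 for Hmox1 (0.43). Tfrc also lost its call when exact zeros were kept as ratios (0.72, adjusted p = 0.118) and with robust moderation (1.44, adjusted p = 0.158). Hmox1 lost its call on the Cy3 arrays alone (0.24), with exact zeros kept (0.43, adjusted p = 0.124), and without set 1 or 2, ranging from 0.33 to 0.60 with 1 set left out. Of the further named genes, Alas1, Hjv, Hp, Lrp1, Pgrmc1, Pgrmc2 and Slc25a37 kept their calls in 14 of the 15 alternatives, and no direction reversed. Exact zeros kept as ratios lowered the genes called down to 903. With 1 set left out, 5 to 9 further pathway genes rose and 3 to 5 fell, while 1193 to 1579 of all genes rose and 951 to 1411 fell. Without the replicate block (6 arrays as separate samples) 7 iron and heme genes rose and 1 fell, and likewise with the set as a random block; over all genes 1909 and 1740 against 1653 and 1435 changed. Deviations of same-numbered arrays of opposite orientation correlated at 0.188, 0.05 and 0.544 in sets 1, 2 and 3. Between sets 1 and 2 the opposite orientations correlated at 0.188 and 0.196, and between set 3 and the others at -0.365 to -0.214. Deviations were taken from the mean of the 3 arrays of an orientation, so they sum to 0 for each probe. The values between sets therefore follow in part from those within sets and are not separate evidence. By their correlation of 0.544 the set 3 arrays deviated together, while the numbers were not shown to pair the arrays of sets 1 and 2. With the block, the further genes Hpx, Bdh2 and Slc39a8 were not called (adjusted p = 0.0801, 0.0936 and 0.214 in limma).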
